A study of Mus musculus with 9 samples.

Results

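Otx2, Pou3f1, Zic2, Zic5, Foxd3, Sox4 and Tcf15 are 7 genes of transcription factors known from the formative epiblast. They were taken as a named list whose rule uses no measured value, although the list was drawn up with earlier results of these data known. They are 7 of 20287 gene IDs listed in the deposited tables, and all 7 were among the 13990 genes that passed the filter on low values. The study compared the mouse embryonic stem cell line E14, from strain 129, with the genotype Hbxip-/- (KO) or wild type (WT). Hbxip, now named Lamtor5, encodes a subunit of Ragulator, the lysosomal complex through which amino acids activate mTORC1. Both genotypes were sampled in pluripotent culture, on day 4 after 96 h of LIF withdrawal, and as embryoid bodies, whose age the labels do not give. LIF is the cytokine that holds these cells in self-renewal, and embryoid bodies are aggregates in which they begin to differentiate. Each culture held 2 KO libraries and 1 WT library, which makes 9 libraries in 6 groups. Whether the paired KO libraries are separate clones or cultures is not stated in the labels, and the p-values therefore reflect the spread between libraries, which may be technical. For the single WT library of each culture, the spread was assumed to be that of the KO pairs.

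Formative pluripotency lies between the naive state of the preimplantation epiblast and the primed state that precedes gastrulation. Cells that pass through it lower naive factors such as ESRRB and TFCP2L1 and gain the competence to form the germ layers. OTX2, a homeodomain factor, directs OCT4 to new enhancers in this transition, and POU3F1 (also OCT6), a POU-domain factor, favours neural fates. ZIC2 and ZIC5 are zinc-finger factors of the ZIC family, and SOX4 is an HMG-box factor of the SoxC group. FOXD3, a forkhead factor, is needed to maintain the epiblast and remodels enhancers as naive cells move on. TCF15 is a basic helix-loop-helix factor that is held inactive by ID proteins and primes stem cells to leave self-renewal, and it is also known from paraxial mesoderm.

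Promoter windows of 300 bases, from 250 before to 50 after a RefSeq start site on GRCm38.p6, were found for 4 of the 7 genes, by symbol, and not for Zic2, Pou3f1 or Tcf15. They are shown because 3 of them (Otx2, Zic5 and Sox4) belong to genes that fell together in pluripotent KO cells, while Foxd3 rose there. Capitals mark matches to any of 8 motifs searched on both strands. These were the E-box CACGTG, the cyclic AMP response element TGACGTCA, the GC box GGGCGG, the CCAAT box CCAAT, the TATA box TATAAA, the TCF/LEF core ATCAAAG, the OTX core TAATCC and the octamer ATGCAAAT. The Otx2 window is 1 of 4 for that gene.
Otx2, chr14:48667595-48667894, minus strand: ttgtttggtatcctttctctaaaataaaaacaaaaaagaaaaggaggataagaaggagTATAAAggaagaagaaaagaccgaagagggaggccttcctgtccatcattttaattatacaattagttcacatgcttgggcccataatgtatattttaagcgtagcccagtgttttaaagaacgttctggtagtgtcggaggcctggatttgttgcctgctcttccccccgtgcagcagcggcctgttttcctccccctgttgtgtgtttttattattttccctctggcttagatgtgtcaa
Zic5, chr14:122465609-122465908, minus strand: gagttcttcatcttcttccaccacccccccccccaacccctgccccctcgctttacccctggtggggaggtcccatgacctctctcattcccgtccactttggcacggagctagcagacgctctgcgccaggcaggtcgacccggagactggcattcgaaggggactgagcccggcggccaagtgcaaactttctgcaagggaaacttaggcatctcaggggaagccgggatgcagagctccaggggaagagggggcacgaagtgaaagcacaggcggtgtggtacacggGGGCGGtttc
Sox4, chr13:28953650-28953949, minus strand: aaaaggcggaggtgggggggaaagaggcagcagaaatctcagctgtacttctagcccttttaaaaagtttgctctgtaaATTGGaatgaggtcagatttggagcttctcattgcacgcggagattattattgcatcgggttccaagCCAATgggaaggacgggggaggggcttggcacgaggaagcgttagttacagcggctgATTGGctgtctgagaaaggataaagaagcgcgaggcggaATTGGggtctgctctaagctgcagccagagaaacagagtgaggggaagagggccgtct
Foxd3, chr4:99656049-99656348, plus strand: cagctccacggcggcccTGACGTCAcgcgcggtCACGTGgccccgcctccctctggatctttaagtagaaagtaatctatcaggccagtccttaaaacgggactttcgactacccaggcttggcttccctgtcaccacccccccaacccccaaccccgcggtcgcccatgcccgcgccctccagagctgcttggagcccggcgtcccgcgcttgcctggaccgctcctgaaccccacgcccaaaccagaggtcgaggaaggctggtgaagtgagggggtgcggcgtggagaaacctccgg

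The Sox4 window held 4 matches to the CCAAT box, which 37.4% of all 32851 windows hold at least once. They began at positions -171, -104, -47 and -8 from the start site. In the Foxd3 window the cyclic AMP response element, present in 1.79% of windows, began at -233. It was followed at -217 by the E-box, present in 7.15% of windows. The Otx2 window held a TATA box at -192 (13.6% of windows), and the Zic5 window a GC box at 41 bases past the start site (35.7% of windows). No motif was common to the 3 windows shown of genes that fell, and no match overlapped another. Of the other Otx2 windows, the second held a CCAAT box at -70 and the third an OTX core at -211. GC content was 41.7% for Otx2, 62.7% for Zic5, 52.0% for Sox4 and 65.7% for Foxd3, beside a median of 52.7% over all windows. These matches are letters in a window and show no binding.

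Library totals ran from 10147277 to 10863845 rounded counts, and 3 counts are worth 0.276 to 0.296 CPM at that depth. Stem cell identity was checked with 7 markers (Pou5f1, Sox2, Nanog, Lin28a, Utf1, Dppa5a and Tdgf1), whose FPKM values summed to 3570 to 4610 in KO libraries and 3840 to 4550 in WT libraries. In pluripotent culture their sum was lower in KO (3790 to 4160 FPKM) than in WT (4540 FPKM). Deposited FPKM carries no TMM scaling factor, unlike the tests, and how much of this gap is scaling was not tested. Utf1 was at 325 and 308 FPKM in KO against 343 FPKM in WT, with a log2 fold change of 0.01. By the test, 4 of the 7 (Lin28a, Nanog, Sox2 and Tdgf1, at -0.89 to -0.31) fell in that culture, beside 26.3% of all genes. None rose there, beside 25.5%. The falls were in the direction of Zic2, Zic5, Otx2 and Sox4. Pou5f1, Utf1 and Dppa5a were not called (0.15, 0.01 and 0.07). Hbxip itself was still read in all KO libraries, at 15.5 to 31.0 FPKM, against 38.5 to 41.8 FPKM in WT libraries. It fell in KO after LIF withdrawal (-1.22 ± 0.16, adjusted p = 7.49e-05) and in embryoid bodies (-1.02 ± 0.15, adjusted p = 0.000252) and was not called in pluripotent culture (-0.31 ± 0.15, adjusted p = 0.0971). Gene-level values cannot tell which exons were removed, so the knockout is taken from the labels. The first principal component of log2 CPM, with 51.5% of the variance, set the KO pluripotent libraries (86.5 and 74.5) apart from the other 7 (-64.6 to 11.5).

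In pluripotent culture, Zic2, Zic5, Otx2 and Sox4 were lower in KO cells than in WT cells, Foxd3 and Tcf15 were higher, and Pou3f1 did not pass the test. In all, 6 of 7 were called, beside 51.8% of all genes. That is 4 of 7 lower, where 26.3% of all tested genes were, and 2 of 7 higher, where 25.5% were. The median log2 fold change of the 7 genes was -1.65, beside -0.01 over all genes. After LIF withdrawal, where 35.8% of all genes were called in either direction, 2 of 7 (Pou3f1 and Zic2) were lower in KO cells, beside 17.5% of all genes. Tcf15, 1 of 7, was higher there, beside 18.4%. Embryoid bodies, with 37.2% of all genes called, had 3 of 7 (Pou3f1, Zic2 and Sox4) lower, beside 17.8%, and again Tcf15 higher, beside 19.4%. The medians in these cultures were -0.35 and -0.42, with 0.00 over all genes in each. In bulk RNA, fewer cells of a type and less RNA per cell cannot be told apart.

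**Figure D1:**
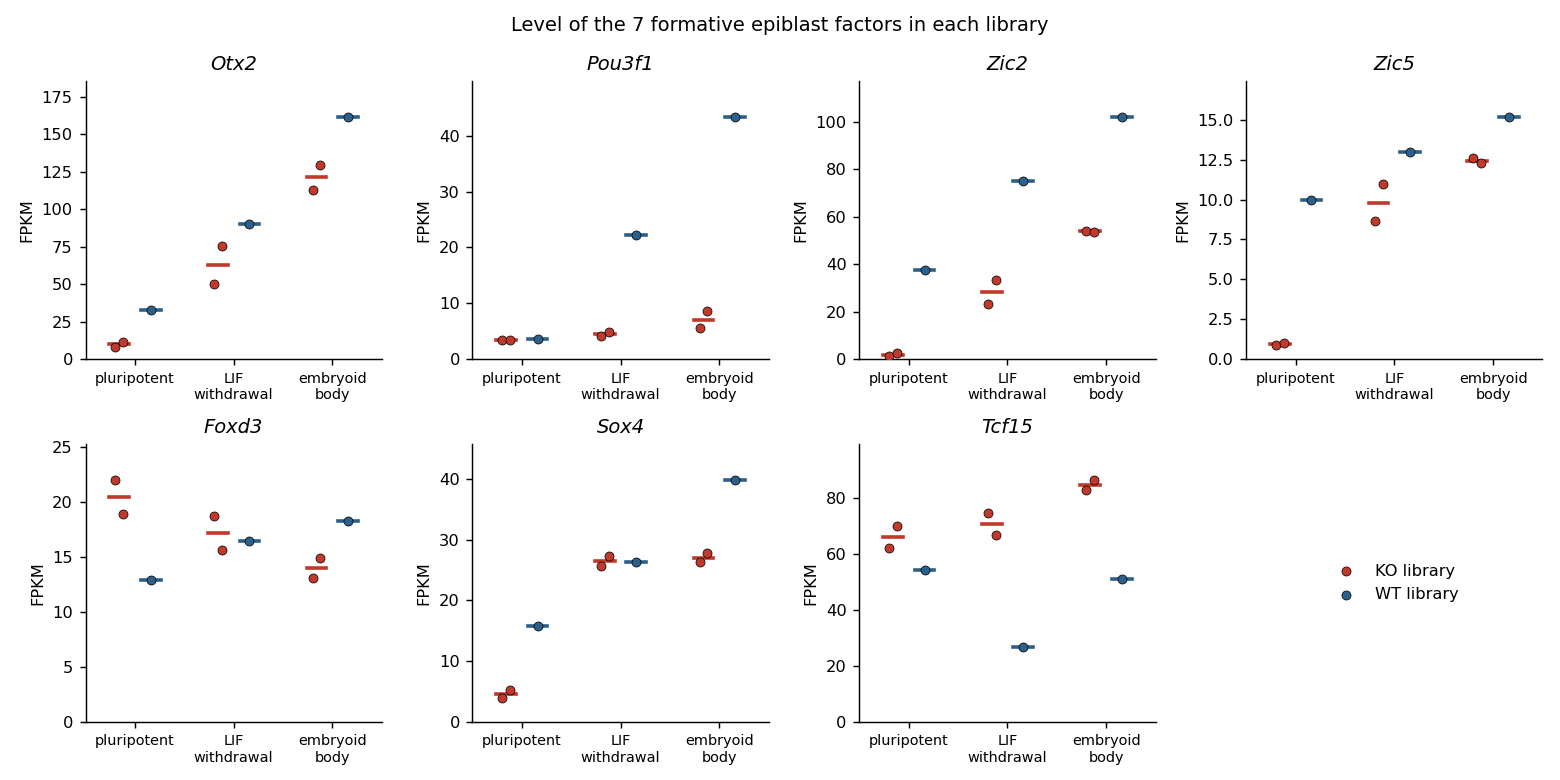
Level of each of the 7 genes (y axis, FPKM, from 0) in the 3 cultures (x axis), with a point per library, KO in red left of WT in blue, and a bar at the mean of 2 KO libraries or the 1 WT value. Zic2, Zic5, Otx2 and Sox4 start low in KO cells and climb in both differentiating cultures, Pou3f1 stays at 8.65 FPKM or less in KO, and Tcf15 lies above WT in every culture.

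Zic2 fell in KO in all 3 cultures, and its fold change in pluripotent culture was the largest of the 7 genes there. In pluripotent culture it was at 1.2 and 2.5 FPKM in KO libraries, against 37.5 FPKM in the WT library. After LIF withdrawal it was at 23.3 and 33.2 FPKM in KO, against 75.1 FPKM in WT. In embryoid bodies it was at 53.9 and 53.7 FPKM in KO, against 102 FPKM in WT. Both KO libraries lay below the WT library in each culture, and the ratio of KO to WT was nearest to 1 in embryoid bodies. The log2 fold change, KO over WT, was -4.22 ± 0.24 in pluripotent culture (adjusted p = 7.38e-08), where each value after ± is a standard error derived from the test's F. With 1 library left out it ran from -4.82 (without KO pluripotent replicate 2) to -3.80. The WT pluripotent library could not be left out, so this range does not cover its spread. It was -1.35 ± 0.17 after LIF withdrawal (adjusted p = 6.06e-05) and -0.93 ± 0.16 in embryoid bodies (adjusted p = 0.000889). The embryoid body call was lost with DESeq2 (-0.93, adjusted p = 0.193) and with limma on log2(FPKM + 1) (-0.91, adjusted p = 0.0553) or on log2(FPKM + 0.1) (-0.92, adjusted p = 0.131).

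Zic5, which lies beside Zic2 on chromosome 14, had 0.89 and 1.03 FPKM in KO pluripotent libraries, against 9.99 FPKM in WT. After LIF withdrawal it had 8.67 and 11.0 FPKM in KO, against 13.0 FPKM in WT. Embryoid bodies had 12.6 and 12.3 FPKM in KO, against 15.2 FPKM in WT. Every KO library was again below its WT library, but only the pluripotent gap was wide. Zic5 fell in pluripotent KO cells (-3.25 ± 0.21, adjusted p = 2.10e-07, and -2.49 by limma on log2(FPKM + 1)). The differences of -0.35 ± 0.15 after LIF withdrawal (adjusted p = 0.0955) and -0.29 ± 0.15 in embryoid bodies (adjusted p = 0.144) did not pass the threshold. Without KO LIF withdrawal replicate 2 the first of these was -0.5 (adjusted p = 0.0371). The ratio of Zic2 to Zic5 FPKM was 1.35 and 2.43 in KO pluripotent libraries, against 3.75 in WT. It was 2.69 and 3.03 in KO against 5.78 in WT after LIF withdrawal, and 4.29 and 4.37 in KO against 6.72 in WT in embryoid bodies. Both KO ratios lay below the WT ratio in each culture.

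The genes around this pair gave a local comparison. On GRCm38 their order is Clybl, the lncRNA Gm5089, Zic5, the lncRNA 2610035F20Rik, Zic2 and Pcca. There 2610035F20Rik and Zic2 lie 185 bases apart without overlap. 2610035F20Rik had 0 and 0.17 FPKM in KO pluripotent libraries, against 4.91 FPKM in WT. This rests on 2 counts over both KO libraries and 59 counts in WT, a ratio of 0.0191 per library size with a 95% exact binomial interval of 0.00226 to 0.0720 that covers counting error only. After LIF withdrawal the lncRNA had 2.63 and 2.52 FPKM in KO, against 7.73 FPKM in WT (-1.52 ± 0.30, adjusted p = 0.00165). Embryoid bodies had 5.84 and 5.41 FPKM in KO, against 6.99 FPKM in WT (-0.32 ± 0.28, adjusted p = 0.404). As a ratio, KO to WT was thus lowest in pluripotent culture, as for Zic2 and Zic5. The metabolic genes on either side were not called in any KO versus WT comparison. Clybl, a mitochondrial enzyme gene, had 0.36 ± 0.16, 0.14 ± 0.16 and 0.33 ± 0.14 in the 3 cultures in order (adjusted p = 0.0842, 0.539 and 0.0876). Pcca, a subunit gene of propionyl-CoA carboxylase, had -0.22 ± 0.16, -0.19 ± 0.14 and 0.25 ± 0.14 (adjusted p = 0.270, 0.349 and 0.193).

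**Figure D2:**
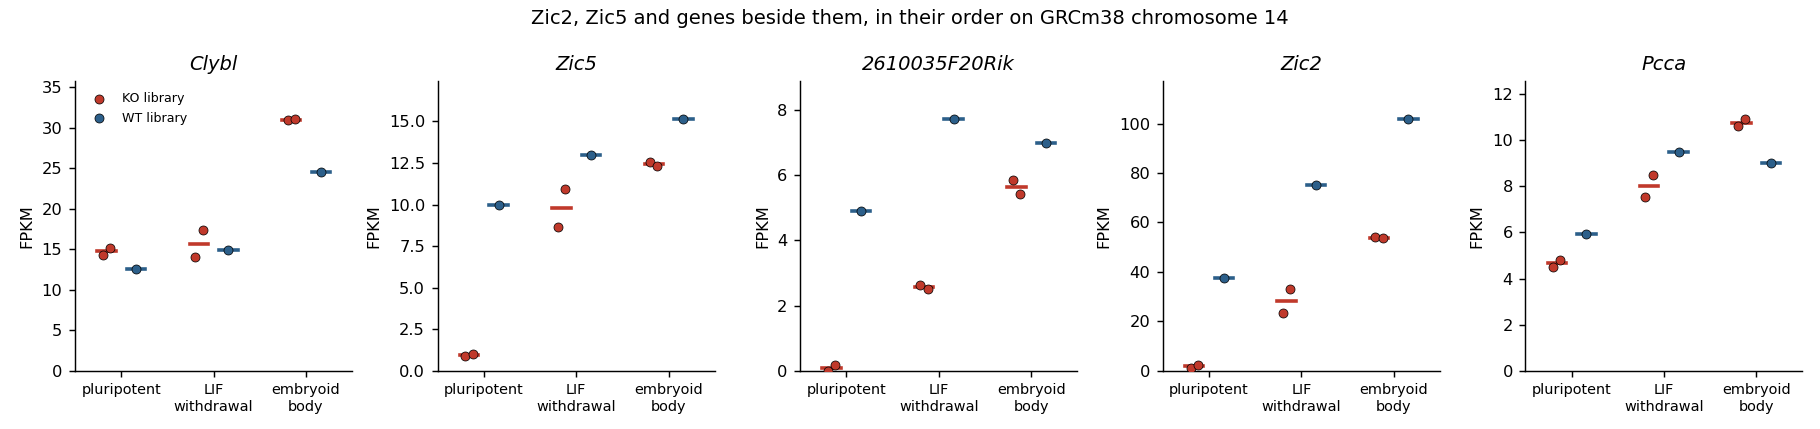
FPKM (y axis, from 0) of Clybl, Zic5, 2610035F20Rik, Zic2 and Pcca in each library of the 3 cultures (x axis), with KO in red left of WT in blue and bars at group means or single values. The middle 3 genes are near 0 in KO pluripotent libraries and higher in WT, while Clybl and Pcca were called in no KO versus WT comparison.

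Otx2 was at 7.94 and 11.5 FPKM in KO pluripotent libraries, against 32.9 FPKM in WT. After LIF withdrawal it reached 50.3 and 75.2 FPKM in KO, against 90.4 FPKM in WT. In embryoid bodies it was at 113 and 130 FPKM in KO, against 161 FPKM in WT. The KO libraries were below WT throughout, with the KO pair after LIF withdrawal spread widely. Otx2 fell in pluripotent KO cells (-1.65 ± 0.22, adjusted p = 6.36e-05). The differences after LIF withdrawal (-0.48 ± 0.18, adjusted p = 0.0586) and in embryoid bodies (-0.42 ± 0.18, adjusted p = 0.0808) were not called. Both lay near the threshold. Leaving out KO LIF withdrawal replicate 2 gave -0.78 (adjusted p = 0.00286) after LIF withdrawal, and leaving out KO pluripotent replicate 1 or 2 gave -0.48 there (adjusted p = 0.0399 and 0.0420). For embryoid bodies, leaving out KO LIF withdrawal replicate 1 or 2 gave -0.42 (adjusted p = 0.0195 and 0.0201). A fit on the 3 libraries of 1 culture gave -0.48 (adjusted p = 0.00851) and -0.42 (adjusted p = 4.37e-06), but its spread comes from 1 KO pair, with none in the WT group.

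Sox4 had 3.91 and 5.30 FPKM in KO pluripotent libraries, against 15.9 FPKM in WT. LIF withdrawal brought 25.7 and 27.3 FPKM in KO, with 26.3 FPKM in WT between them. In embryoid bodies it had 26.3 and 27.8 FPKM in KO, against 39.9 FPKM in WT. The groups thus overlapped after LIF withdrawal only. Sox4 fell in KO in pluripotent culture (-1.66 ± 0.14, adjusted p = 1.44e-06) and in embryoid bodies (-0.57 ± 0.11, adjusted p = 0.00142), and was not called after LIF withdrawal (0.07 ± 0.11, adjusted p = 0.658). Limma on log2(FPKM + 0.1) did not make the embryoid body call (-0.56, adjusted p = 0.0532). A RefSeq lncRNA, Gm46405, overlaps Sox4 on GRCm38, and since strandedness is not given in the sources used here, its reads cannot be told from those of Sox4.

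Pou3f1 was called lower in KO in the differentiating cultures and not in pluripotent culture. In pluripotent culture it was at 3.34 and 3.34 FPKM in KO, against 3.67 FPKM in WT. After LIF withdrawal it was at 4.05 and 4.86 FPKM in KO, against 22.2 FPKM in WT. Embryoid bodies had 5.52 and 8.65 FPKM in KO, against 43.3 FPKM in WT. Both KO libraries were far below WT in the differentiating cultures and close to it before. The log2 fold change was -0.01 ± 0.26 in pluripotent culture (adjusted p = 0.974), -2.25 ± 0.19 after LIF withdrawal (adjusted p = 2.58e-06) and -2.61 ± 0.17 in embryoid bodies (adjusted p = 5.26e-07).

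Foxd3 was at 22.0 and 18.9 FPKM in KO pluripotent libraries, against 12.8 FPKM in WT. It was at 18.7 and 15.6 FPKM in KO after LIF withdrawal, with 16.5 FPKM in WT between them. In embryoid bodies it was at 13.1 and 14.9 FPKM in KO, against 18.2 FPKM in WT. The KO pair thus lay above WT, around it and below it in turn. Foxd3 rose in pluripotent KO cells (0.79 ± 0.16, adjusted p = 0.00116). It was not called after LIF withdrawal (0.12 ± 0.15, adjusted p = 0.579) or in embryoid bodies (-0.39 ± 0.15, adjusted p = 0.0647). The last value was called without KO LIF withdrawal replicate 1 or 2 (-0.39, adjusted p = 0.0432 and 0.0435) and in a fit on the embryoid body libraries alone (-0.39, adjusted p = 0.00362), where 1 KO pair gives the spread.

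Tcf15 was at 62.0 and 70.0 FPKM in KO pluripotent libraries, against 54.3 FPKM in WT. After LIF withdrawal it was at 74.5 and 66.8 FPKM in KO, against 26.7 FPKM in WT. Embryoid bodies had 82.8 and 86.5 FPKM in KO, against 51.1 FPKM in WT. Both KO libraries were above WT in all 3 cultures. Tcf15 rose in KO by 0.40 ± 0.11 in pluripotent culture (adjusted p = 0.0105), by 1.47 ± 0.13 after LIF withdrawal (adjusted p = 3.08e-06) and by 0.72 ± 0.11 in embryoid bodies (adjusted p = 0.000393). The pluripotent call was lost with DESeq2 (0.41, adjusted p = 0.0718), with limma on log2(FPKM + 1) (0.27, adjusted p = 0.0622) or log2(FPKM + 0.1) (0.28, adjusted p = 0.0658), in a fit on those 3 libraries alone (0.41, adjusted p = 0.0651) and without KO pluripotent replicate 2 (0.34, adjusted p = 0.0556).

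**Figure D3:**
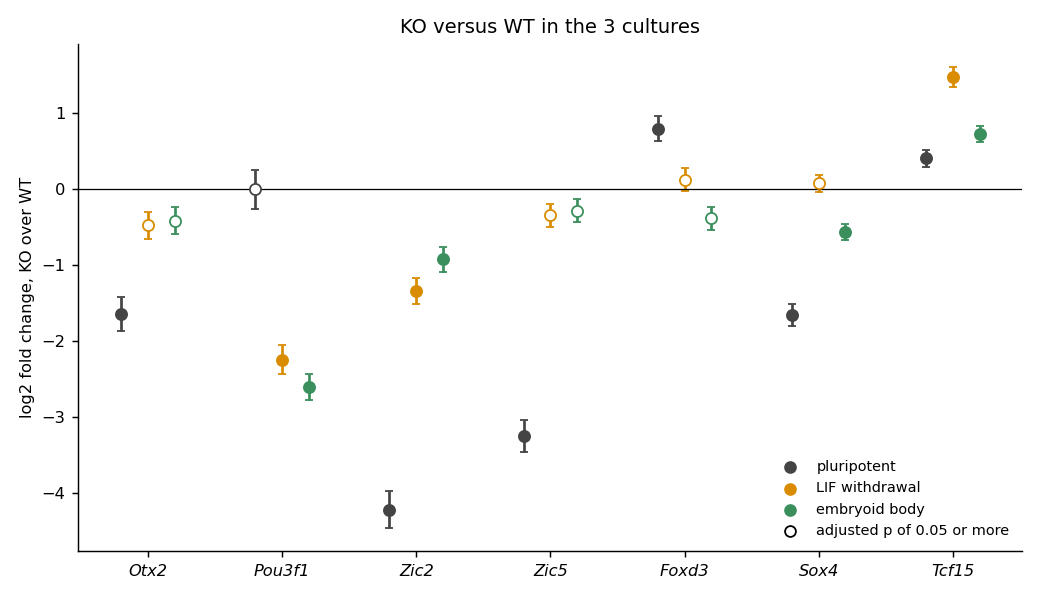
Log2 fold change, KO over WT, of the 7 genes (y axis) in the 3 cultures, with bars of 1 standard error and open points where the adjusted p was 0.05 or more. Zic2 and Zic5 lie at -4.22 and -3.25 in pluripotent culture, Pou3f1 has filled points below 0 in the differentiating cultures and an open one near 0 before, and Tcf15 is above 0 in all 3.

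The change on differentiation was compared within each genotype, which asked how far each factor moved from its own pluripotent level. In KO cells 4 of 7 (Zic2, Zic5, Otx2 and Sox4) rose after LIF withdrawal, beside 30.2% of all genes, and none fell, beside 29.0%, with 59.2% called in either direction. In WT cells 4 of 7 (Otx2, Pou3f1, Zic2 and Sox4) rose, beside 11.6%, and Tcf15 fell, beside 8.9%, with 20.5% called in either direction. In embryoid bodies 6 of 7 rose in KO cells, beside 31.0%, with Foxd3 the 1 that fell, beside 30.0%, so that 7 of 7 were called, beside 61.0%. In WT embryoid bodies 6 of 7 rose as well, beside 19.7%, and none fell, beside 18.9%, so that 6 of 7 were called, beside 38.6%. Tcf15 was the gene not called. The median response to LIF withdrawal was 2.49 in KO cells and 0.76 in WT cells, and that to embryoid body formation 2.45 in KO cells and 1.35 in WT cells, with 0.00 to 0.01 over all genes.

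Zic2 rose by 3.90 ± 0.22 after LIF withdrawal in KO cells (adjusted p = 4.59e-08) and by 1.03 ± 0.20 in WT cells (adjusted p = 0.00359). Its rise in embryoid bodies was 4.76 ± 0.21 in KO (adjusted p = 6.83e-09) and 1.46 ± 0.20 in WT (adjusted p = 0.000157). With 1 library left out the KO rises ran from 3.47 to 4.5 and from 4.32 to 5.36, the upper ends without KO pluripotent replicate 2. Zic5 rose by 3.31 ± 0.18 in KO after LIF withdrawal (adjusted p = 4.53e-08) and had 0.41 ± 0.18 in WT, which was not called (adjusted p = 0.128). In both genotypes these rises are set against the pluripotent level, which was the lower one in KO. In embryoid bodies Zic5 rose by 3.58 ± 0.18 in KO (adjusted p = 2.15e-08) and by 0.62 ± 0.18 in WT (adjusted p = 0.0143). Limma on log2(FPKM + 1) gave 2.46 and 2.78 for the KO rises of Zic5. Otx2 rose after LIF withdrawal by 2.67 ± 0.18 in KO (adjusted p = 2.11e-07) and by 1.5 ± 0.22 in WT (adjusted p = 0.000624). It rose in embryoid bodies by 3.56 ± 0.18 in KO (adjusted p = 2.5e-08) and by 2.33 ± 0.22 in WT (adjusted p = 1.12e-05). Sox4 rose by 2.49 ± 0.11 in KO (adjusted p = 1.04e-08) and 0.76 ± 0.13 in WT (adjusted p = 0.00202) after LIF withdrawal. In embryoid bodies its rise was 2.45 ± 0.11 in KO (adjusted p = 9.47e-09) and 1.35 ± 0.13 in WT (adjusted p = 1.25e-05). Several of the WT rises were lost with other methods. Zic2 after LIF withdrawal was not called by DESeq2 (1.03, adjusted p = 0.327) or by limma on log2(FPKM + 1) (0.98, adjusted p = 0.0984) or log2(FPKM + 0.1) (1.0, adjusted p = 0.202), nor were Zic2 (1.46, adjusted p = 0.0525) and Zic5 (0.62, adjusted p = 0.147) in embryoid bodies by DESeq2. Limma on log2(FPKM + 0.1) did not call Sox4 after LIF withdrawal (0.73, adjusted p = 0.0614), nor Zic2 (1.44, adjusted p = 0.0578) and Zic5 (0.6, adjusted p = 0.0649) in embryoid bodies.

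Pou3f1 had smaller responses in KO cells than in WT cells. Its response to LIF withdrawal was 0.38 ± 0.20 in KO, which was not called (adjusted p = 0.127), and 2.62 ± 0.24 in WT (adjusted p = 1.64e-05). Without KO embryoid body replicate 1 or 2 the KO value of 0.38 was called (adjusted p = 0.0373 and 0.0379). In embryoid bodies Pou3f1 rose by 0.98 ± 0.19 in KO (adjusted p = 0.000813) and by 3.58 ± 0.24 in WT (adjusted p = 6.08e-07). Foxd3 had -0.29 ± 0.12 in KO (adjusted p = 0.0612) and 0.39 ± 0.18 in WT (adjusted p = 0.159) after LIF withdrawal. Without KO pluripotent replicate 2 (-0.41, adjusted p = 0.0256) or KO LIF withdrawal replicate 1 (-0.46, adjusted p = 0.0154) the KO value was called. In embryoid bodies Foxd3 fell in KO (-0.66 ± 0.13, adjusted p = 0.000652) and rose by 0.52 ± 0.18 in WT (adjusted p = 0.0360), a WT call lost with DESeq2 (0.53, adjusted p = 0.148), with limma on log2(FPKM + 1) (0.47, adjusted p = 0.0708) or log2(FPKM + 0.1) (0.5, adjusted p = 0.0774) and with no filter on low values (0.51, adjusted p = 0.0513). Tcf15 had 0.07 ± 0.09 in KO (adjusted p = 0.554) after LIF withdrawal and fell in WT (-1.0 ± 0.14, adjusted p = 0.000453). The gap between genotypes in that culture thus went with a lower WT level and a nearly level KO one. Tcf15 rose by 0.25 ± 0.09 in KO embryoid bodies (adjusted p = 0.0271) and had -0.07 ± 0.13 in WT (adjusted p = 0.729). This KO rise was lost with DESeq2 (0.24, adjusted p = 0.174), without KO pluripotent replicate 1 (0.17, adjusted p = 0.218) and without KO embryoid body replicate 1 (0.28, adjusted p = 0.0626) or 2 (0.22, adjusted p = 0.145).

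The test of the difference, KO response minus WT response, called 7 of 7 genes for LIF withdrawal, beside 32.4% of all genes, 5 higher and 2 lower, beside 17.5% and 14.9%. For embryoid bodies it called 6 of 7, beside 41.9%, 4 higher and 2 lower, beside 22.4% and 19.5%. These differences share their libraries with the comparisons above: each equals the KO versus WT value of the differentiating culture minus that of pluripotent culture, and is no independent result. The responses of Zic2 and Zic5 differed most, by 2.87 ± 0.31 (adjusted p = 5.24e-05) and 2.91 ± 0.27 (adjusted p = 1.90e-05) for LIF withdrawal. With 1 library left out, other than the WT libraries compared, the Zic2 value ran from 2.44 to 3.47 (the latter without KO pluripotent replicate 2). Limma on log2(FPKM + 1) gave 2.11 for Zic5. Pou3f1 differed in the other direction, by -2.24 ± 0.32 (adjusted p = 0.000311). Sox4 differed by 1.73 ± 0.18 (adjusted p = 3.73e-05), Otx2 by 1.17 ± 0.29 (adjusted p = 0.00906), Tcf15 by 1.06 ± 0.17 (adjusted p = 0.000623) and Foxd3 by -0.67 ± 0.22 (adjusted p = 0.0333). Otx2 was not called by DESeq2 (1.17, adjusted p = 0.0993) or by limma on log2(FPKM + 1) (1.13, adjusted p = 0.0709) or log2(FPKM + 0.1) (1.22, adjusted p = 0.0740). Foxd3 was not called by DESeq2 (-0.68, adjusted p = 0.139), by limma on log2(FPKM + 1) (-0.57, adjusted p = 0.0836) or log2(FPKM + 0.1) (-0.61, adjusted p = 0.0895), without KO pluripotent replicate 1 (-0.54, adjusted p = 0.0965) or without KO LIF withdrawal replicate 2 (-0.53, adjusted p = 0.0828).

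**Figure D4:**
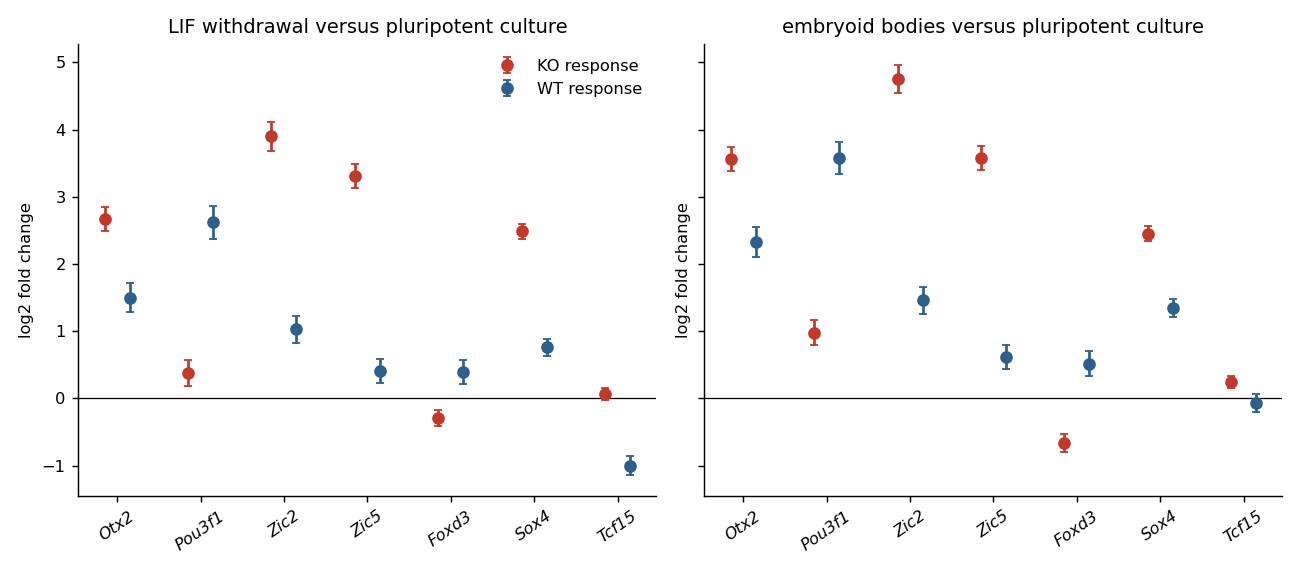
Log2 fold change from pluripotent culture (y axis) for the 7 genes after LIF withdrawal (left) and in embryoid bodies (right), with KO in red left of WT in blue and bars of 1 standard error. Zic2, Zic5, Otx2 and Sox4 have the larger response in KO, and Pou3f1 in WT (2.62 and 3.58, against 0.38 and 0.98 in KO).

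The order of the levels changed between groups. In KO pluripotent libraries it was Tcf15, Foxd3, Otx2, Sox4, Pou3f1, Zic2 and Zic5, at mean levels of 66.0, 20.4, 9.71, 4.61, 3.34, 1.85 and 0.960 FPKM, with no neighbours overlapping between libraries. In the WT pluripotent library it was Tcf15, Zic2, Otx2, Sox4, Foxd3, Zic5 and Pou3f1, at 54.3 down to 3.67 FPKM. After LIF withdrawal Otx2 led in WT (90.4 FPKM), while in KO Tcf15 (70.6 FPKM) and Otx2 (62.7 FPKM) overlapped, as did Zic2 and Sox4. In embryoid bodies Otx2 led in both genotypes, and Pou3f1 was last in KO (7.08 FPKM) but the fourth in WT (43.3 FPKM). Single WT libraries have no spread, so close neighbours there, such as Tcf15 (26.7 FPKM) and Sox4 (26.3 FPKM) after LIF withdrawal, cannot be ordered.

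Of 14 close paralogs set beside the 7 genes, 3 passed the filter on low values (Crx, Sox11 and Sox12), and the other 11 stayed at or below 1.12 FPKM in every library. Sox11 and Sox12, like Sox4 SoxC factors, fell with Sox4 in pluripotent KO cells. Sox12 had 5.06 and 6.59 FPKM in KO pluripotent libraries, against 20.5 FPKM in WT (-1.69 ± 0.12, adjusted p = 3.71e-07). Sox4 made up 41.0% and 41.9% of the summed SoxC FPKM there in KO libraries, and 41.2% in WT. Sox12 was not called after LIF withdrawal (-0.06 ± 0.11, adjusted p = 0.733) or in embryoid bodies (-0.02 ± 0.11, adjusted p = 0.930). Sox11 fell in KO in each culture, with -1.53 ± 0.25, -1.40 ± 0.17 and -1.55 ± 0.15 in order (adjusted p = 0.000287, 5.29e-05 and 1.15e-05). Its KO and WT responses differed by 0.13 ± 0.30 for LIF withdrawal (adjusted p = 0.784) and -0.02 ± 0.33 for embryoid bodies (adjusted p = 0.971). Crx, the OTX paralog known from photoreceptors, was at 0.50 to 0.81 FPKM in KO and 0.64 to 1.06 FPKM in WT and was called in no KO versus WT comparison (adjusted p = 0.240, 0.832 and 0.852).

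A list of 19 other formative and primed epiblast genes, all tested, was set beside the 7. In pluripotent culture 1 rose, where 25.5% of all tested genes did, and 12 fell in KO, where 26.3% did, with a median of -0.84 beside -0.01 over all genes. After LIF withdrawal 3 rose, beside 18.4%, and 13 fell, beside 17.5% (median -1.45, and 0.00 over all genes). In embryoid bodies 1 rose, beside 19.4%, and 13 fell, beside 17.8% (median -1.68, and 0.00 over all genes). Genes near 0 in KO, such as Fst, could pass the filter on low values only through WT libraries, which partly fixes these counts of falls. Lef1, a transcription factor of WNT signalling, was at 0.08 and 0.26 FPKM in KO pluripotent libraries, against 9.47 FPKM in WT (-5.72 ± 0.39, adjusted p = 3.18e-07). The zinc-finger gene Sall2 (-3.57 ± 0.21, adjusted p = 8.55e-08) and the epithelial factor gene Grhl2 (-3.09 ± 0.29, adjusted p = 3.81e-06) followed in that culture. After LIF withdrawal the largest falls were those of Fst, which encodes the activin antagonist follistatin (-5.30 ± 0.34, adjusted p = 3.51e-07), the ligand gene Wnt8a (-4.59 ± 0.30, adjusted p = 4.40e-07) and Lef1 (-3.17 ± 0.22, adjusted p = 6.90e-07). In embryoid bodies Fst was at 0.15 and 0 FPKM in KO, with 4 counts over both libraries, against 29.8 FPKM and 843 counts in WT. Wnt8a (-4.37 ± 0.27, adjusted p = 3.04e-07) and the kinase gene Pim2 (-3.98 ± 0.13, adjusted p = 2.56e-09) fell there too. Fgf5, a widely used marker of the primed epiblast, had 1.11 and 0.63 FPKM in KO against 0.42 FPKM in WT in pluripotent culture and 8.11 and 10.5 FPKM in KO against 78.8 FPKM in WT in embryoid bodies. Fgf5 lies outside the rule for named genes and was chosen after its values were seen.

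**Figure D5:**
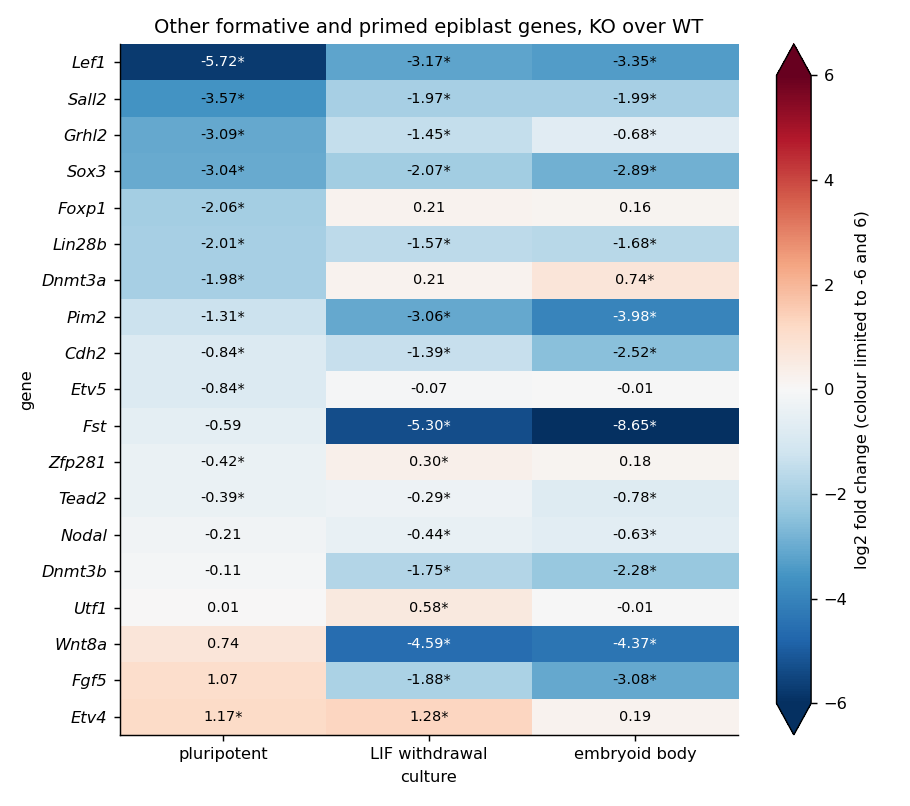
Log2 fold change, KO over WT, of the 19 other formative and primed epiblast genes (rows) in the 3 cultures (columns), with the value in each cell, an asterisk where the adjusted p was below 0.05, and colour limited to -6 and 6. More cells are blue than red, with Lef1 lowest in pluripotent culture (-5.72) and Fst in both differentiating cultures; the Fst value in embryoid bodies rests on 4 KO counts.

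Naive pluripotency genes gave a list of 15. In pluripotent culture 6 rose, beside 25.5% of all genes, and 8 fell in KO, beside 26.3% (median -0.31). After LIF withdrawal 9 rose, beside 18.4%, and 3 fell, beside 17.5% (median 0.87). In embryoid bodies 13 rose, beside 19.4%, and 2 fell, beside 17.8% (median 1.08). Tfcp2l1, a LIF-responsive factor, was at 33.2 and 29.5 FPKM in KO after LIF withdrawal, against 7.19 FPKM in WT (2.18 ± 0.11, adjusted p = 9.02e-08). Esrrb, an orphan nuclear receptor of the naive network, was at 217 and 207 FPKM in KO embryoid bodies, against 64.5 FPKM in WT (1.71 ± 0.10, adjusted p = 2.30e-07). In the differentiating cultures more naive genes were thus higher than lower, beside lower Pou3f1 and Zic2 in the same KO libraries. Dppa3 and Nanog fell in each culture. Dppa3, a maternal and germline factor gene, had the larger changes (-2.26 ± 0.67, -2.10 ± 0.58 and -4.64 ± 0.47, with adjusted p = 0.0129, 0.0133 and 1.25e-05). Nanog, a homeodomain factor of the naive network, had -0.60 ± 0.11, -0.33 ± 0.12 and -0.38 ± 0.12 (adjusted p = 0.000898, 0.0466 and 0.0217).

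Markers of other cell types that could hold these factors moved with some of the results. Neuroectoderm markers (Sox1, Pax6, Nes, Hes5, Neurog2 and Tubb3) summed to 53.8 to 55.4 FPKM in KO pluripotent libraries, against 125 FPKM in WT, in the direction of Zic2, Zic5, Otx2 and Sox4. Of the 4 tested, Nes (-1.75 ± 0.16) and Tubb3 (-1.10 ± 0.11) fell, beside 26.3% of all genes, and Sox1 rose (1.09 ± 0.33), beside 25.5%. Tubb3 alone was at 51.8 and 49.8 FPKM in KO, against 118 FPKM in WT. Neurog2, which was not tested, was at 0 in both KO pluripotent libraries, and also in the WT embryoid body library. After LIF withdrawal this sum was 51.1 to 56.1 FPKM in KO against 58.7 FPKM in WT, and in embryoid bodies 35.4 to 43.1 FPKM in KO against 26.5 FPKM in WT. Of the 4 tested, 1 rose and 2 fell after LIF withdrawal, beside 18.4% and 17.5% of all genes. In embryoid bodies 2 rose and 1 fell, beside 19.4% and 17.8%. Sox1 rose in both of these cultures (4.64 ± 0.34 and 3.86 ± 0.44, adjusted p = 1.04e-06 and 3.48e-05), where Pou3f1 fell. Nes fell in both (-3.01 ± 0.15 and -2.32 ± 0.18, adjusted p = 5.72e-08 and 1.4e-06), Pax6 fell after LIF withdrawal (-1.11 ± 0.36, adjusted p = 0.0302), and Tubb3 rose in embryoid bodies (0.74 ± 0.14, adjusted p = 0.00127). Primitive streak markers (T, Mixl1, Eomes, Mesp1, Gsc and Evx1) summed to 11.3 to 15.1 FPKM in KO against 45.6 FPKM in WT after LIF withdrawal. In embryoid bodies they summed to 15.5 to 15.8 FPKM in KO against 71.9 FPKM in WT, in the direction of Pou3f1 and Zic2. Of the 5 tested, 4 fell after LIF withdrawal, beside 17.5% of all genes, and 5 in embryoid bodies, beside 17.8%. Among the 5, Gsc was at 0 in both KO libraries of embryoid bodies. T, the streak gene brachyury, was at 0.05 and 0.18 FPKM in KO embryoid bodies, against 24.0 FPKM in WT. The filter on low values used the mean over all 9 libraries, so genes near 0 in KO could pass only through WT libraries. Counts of falls among such markers were thus partly fixed by the filter. Paraxial mesoderm markers (Tbx6, Msgn1, Meox1, Dll3 and Foxc2), which could accompany Tcf15, had lower sums in KO than in WT in each culture, opposite to Tcf15. The sums were 3.16 to 3.58 FPKM in KO against 4.06 FPKM in WT in pluripotent culture. They were 2.22 to 3.48 against 5.99 FPKM after LIF withdrawal and 4.51 to 4.74 against 7.39 FPKM in embryoid bodies. Only 2 were tested. Tbx6 was called in no culture (0.23, -0.41 and 0.22, adjusted p = 0.767, 0.625 and 0.797), and Dll3 fell after LIF withdrawal (-1.44 ± 0.28, adjusted p = 0.00151) and in embryoid bodies (-0.98 ± 0.24, adjusted p = 0.0076).

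Neural crest markers (Tfap2a, Tfap2b, Sox10, Pax3, Snai2, Ets1 and Sox9), a lineage in which Foxd3 is known, had lower sums in KO than in WT in each culture. The sums were 2.74 to 2.91 FPKM in KO against 3.52 FPKM in WT in pluripotent culture. They were 2.76 to 3.68 against 7.57 FPKM after LIF withdrawal and 4.22 to 4.71 against 8.05 FPKM in embryoid bodies. Of the 4 tested, none was called in pluripotent culture, where Foxd3 rose and 51.8% of all genes were called. After LIF withdrawal 3 of the 4 (Tfap2a, Sox10 and Ets1) fell, beside 17.5% of all genes, and Snai2 rose, beside 18.4%. In embryoid bodies Sox10 and Ets1 fell, beside 17.8%. Extraembryonic endoderm markers (Gata6, Gata4, Sox17, Hnf4a, Afp, Apoa1 and Amn) summed to 24.2 to 30.1 FPKM in KO pluripotent libraries, against 4.83 FPKM in WT. Of this sum Amn gave 22.3 and 17.5 FPKM in KO, against 1.78 FPKM in WT. There 3 of the 4 tested rose, beside 25.5% of all genes. The sum of these markers was 8.96 to 8.99 FPKM in KO against 4.39 FPKM in WT after LIF withdrawal. In that culture 2 rose and 1 fell, beside 18.4% and 17.5% of all genes. In embryoid bodies the sum was 7.85 to 8.69 FPKM in KO against 4.79 FPKM in WT. There 1 rose and 1 fell, beside 19.4% and 17.8%. Fibroblast and feeder markers (Col1a1, Col1a2, Col3a1, Thy1, Postn and S100a4) summed to 16.6 to 21.0 FPKM in KO pluripotent libraries, against 36.5 FPKM in WT. Col3a1, Postn and S100a4, none of them tested, were at 0 in both KO pluripotent libraries. Postn was also at 0 in the WT pluripotent library, and S100a4 in the WT library after LIF withdrawal. Both tested markers, Col1a1 and Thy1, were lower in pluripotent KO cells, beside 26.3% of all genes. Both fell again after LIF withdrawal (sum 5.91 to 7.70 FPKM in KO, against 15.2 FPKM in WT), in the direction of Pou3f1 and Zic2, beside 17.5% of all genes. Col1a1 fell in embryoid bodies (sum 20.3 to 21.5 FPKM in KO, against 32.2 FPKM in WT), beside 17.8%. The part of these markers in the results was not tested.

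The genes whose pattern was most like that of each factor were ranked by Pearson's r of log2(FPKM + 1) over the 9 libraries, which share genotype and culture, so r is a description of likeness only. For Zic2 they were Efr3b (0.999), Adgrl1 (0.997) and Cgn (0.997), and for Zic5 they were Zfp81 (0.995), Mbtd1 (0.995) and Nedd1 (0.992). Otx2 was most like Nectin3 (0.995), Ccdc8 (0.994) and Klhl7 (0.993), and Sox4 most like Rnf145 (0.996), Eml4 (0.995) and Arid3b (0.993). Pou3f1 was most like Frem2 (0.991), Usf1 (0.985) and Usp25 (0.982), but with log2 CPM 0 of these 3 were again among the top 3. The values were lower for Foxd3, among them Cbx6 (0.914) and Yju2 (0.908), and with log2 CPM 1 of its top 3 was again among the top 3. Tcf15 was most like Zfp383 (0.964) and Pde9a (0.963).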

How the data were processed

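RNA-seq of 9 libraries of KO and WT E14 cells was used, grouped by the labels. Per the submitters' processing notes, the aligner was Bowtie2 and the build mm8. Annotation version, quantifier and strandedness are not given in the sources used here. The deposited tables give an expected count (an estimated count, not always whole) and an FPKM value per gene, per the file headers. FPKM by definition scales by gene length and library size, and its values were taken as deposited. They carry no TMM factor, so FPKM ratios and log2 fold changes from the tests can differ. For testing, counts were rounded to integers with 0 for genes missing from a table.

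Of 20287 gene IDs, 20234 were matched by ID and 9 by accession to RefSeq's GRCm38 table, used only for names and neighbours. The 13990 genes whose mean FPKM over all 9 libraries reached 0.5 were tested. A gene near 0 in KO could pass this filter only through its WT libraries. The test was edgeR 4.0.16 in R 4.3.3 (quasi-likelihood, TMM factors 0.94 to 1.04, 1 mean for each of 6 groups, 3 residual degrees of freedom). Benjamini-Hochberg adjusted p-values are over all tested genes of a comparison, called below 0.05. Alternatives were DESeq2 1.42.0, limma 3.58.1 on log2(FPKM + 1) or log2(FPKM + 0.1), other size factors, no filter, left-out libraries, a replicate block and fits within a culture. The procedure was also run on simulated counts with known changes in the KO pluripotent libraries. Its outcome is not used as support here. The simulation gave every group the same spread, so it does not test the spread assumed for WT libraries. It also kept most genes level between groups, so it does not test the scaling under changes as wide as these. Within KO pairs, chi-square per degree of freedom was 2.88 to 4.37, above counting noise, so none was taken for 1 library deposited more than once. Named genes were the 7 members, their paralogs, up to 3 called members of each list per KO versus WT comparison with the largest changes and a mean FPKM of at least 1, and the 3 genes most like each member. The members and lists were chosen with earlier results of these data known. Some genes of the lists and of those most like a member are not reported here, and list values were computed without them.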

Additional observations from a re-analysis of the deposited data

Results flagged for a closer look

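By the test of the difference in edgeR, the KO and WT responses to LIF withdrawal differed for each of the 7 genes, beside 32.4% of all genes. The responses in embryoid bodies differed for 6, beside 41.9% of all genes. The differences, KO minus WT on the log2 scale, were 2.87 and 3.29 for Zic2, 2.91 and 2.96 for Zic5, 1.73 and 1.10 for Sox4, and 1.17 and 1.23 for Otx2, with LIF withdrawal given before embryoid bodies. They were -2.24 and -2.60 for Pou3f1 and -0.67 and -1.18 for Foxd3. For Tcf15 the difference was 1.06 after LIF withdrawal, while that in embryoid bodies, 0.32 ± 0.16, was not called (adjusted p = 0.131). Adjusted p-values for embryoid bodies were 1.21e-05 for Zic2, 9.15e-06 for Zic5, 0.000477 for Sox4, 0.00488 for Otx2, 6.34e-05 for Pou3f1 and 0.00120 for Foxd3. With 1 library left out, other than the WT libraries compared, the Zic2 value for embryoid bodies ran from 2.87 to 3.89 (the latter without KO pluripotent replicate 2). Limma on log2(FPKM + 1) gave 2.22 for Zic5. The Otx2 value for embryoid bodies was not called by DESeq2 (1.22, adjusted p = 0.0680). For LIF withdrawal, Otx2 and Foxd3 were called neither by DESeq2 nor by limma on either scale. All these values share the pluripotent libraries. Outliers could not be looked for, since no group held more than 2 libraries.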

How the results depend on the processing

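No member or count changed direction where it was called. DESeq2 called clearly fewer genes than edgeR in 7 of 9 comparisons. In the other 2, the KO responses, the counts of DESeq2 were nearer to those of edgeR as a ratio. For KO versus WT it called 4792 (7248 by edgeR), 2850 (5011) and 2905 (5204) genes in pluripotent culture, LIF withdrawal and embryoid bodies. For WT responses it called 1240 (2867) and 2932 (5400), and for differences between responses 2377 (4528) and 3284 (5857), LIF withdrawal before embryoid bodies. The cause was not tested. Of the 7 factors, limma on log2(FPKM + 0.1) called 2 rather than 4 for KO versus WT in embryoid bodies, 3 rather than 5 for the WT response to LIF withdrawal and 3 rather than 6 for WT embryoid bodies, where DESeq2 also called 3. With 1 library left out, 3 to 5 factors were called for KO versus WT after LIF withdrawal, 5 being reached without KO replicate 2 of that culture. Leaving out the WT library of a culture left no comparison there. The 7 factors gave 63 values under the replicate block, 59 on the same side of the threshold and 4 newly called: Otx2 for KO versus WT after LIF withdrawal (-0.5, adjusted p = 0.000471) and in embryoid bodies (-0.42, adjusted p = 0.00110), Foxd3 in embryoid bodies (-0.39, adjusted p = 0.0205) and Foxd3 in KO after LIF withdrawal (-0.29, adjusted p = 0.0177). The KO numbers were not taken as pairing, since the labels do not state that they mark a shared clone or culture. Over all tested genes, deviations correlated at 0.18, 0.02 and 0.07 between cultures, which does not settle the question for single genes. Otx2 and Sox4 were lower in KO replicate 1 than in replicate 2 in every culture, and the other members kept no such order. Other size factors moved the median of all genes by at most 0.012. Uncalled values near 0 crossed it with 1 library left out: Foxd3 for KO versus WT after LIF withdrawal ran from -0.04 to 0.26, Pou3f1 in pluripotent culture from -0.03 to 0.01 and Tcf15 in KO after LIF withdrawal from -0.05 to 0.16.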

Other observations

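Genes beside the other factors on GRCm38 did not all stay level. Only genes with values in the deposited data were considered as neighbours, so unlisted genes may lie nearer. Srxn1, the sulfiredoxin gene next to Tcf15, rose in KO in all 3 cultures (1.06 ± 0.11, 1.41 ± 0.12 and 1.28 ± 0.12 in order, with adjusted p = 8.53e-06, 2.53e-06 and 6.94e-06). Csnk2a1, a casein kinase gene on the other side of Tcf15, fell in pluripotent culture (-0.54 ± 0.08, adjusted p = 0.000120) and embryoid bodies (-0.26 ± 0.08, adjusted p = 0.0190) and had -0.18 ± 0.08 after LIF withdrawal (adjusted p = 0.101). Rragc, a Rag GTPase gene, is the nearest such gene on one side of Pou3f1 but lies 720649 bases away. It rose in KO in each culture (1.36 ± 0.13, 0.68 ± 0.12 and 0.71 ± 0.12, with adjusted p = 3.86e-06, 0.000914 and 0.000569). Utp11, a ribosome biogenesis gene 17577 bases from Pou3f1 on the other side, fell after LIF withdrawal (-0.36 ± 0.10, adjusted p = 0.0164) and was not called in pluripotent culture (-0.18 ± 0.10, adjusted p = 0.151) or in embryoid bodies (0.06 ± 0.11, adjusted p = 0.706). Atg4c and Alg6, on either side of Foxd3, Tmem260 beside Otx2 and the lncRNA 2610307P16Rik beside Sox4 were called in no KO versus WT comparison.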
